A study of Mus musculus with 7 samples.

Results

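The genes described here are the paired immunoglobulin-like receptors of the mouse, taken as every symbol in the count files that reads Pira with or without a number, or Pirb. The rule found 4 genes, Pirb, Pira1, Pira2 and Pira6, of 27179 genes in the files, and all 4 passed the filters on low counts and gene class, as did 15078 genes in all. Pira6 and Pirb were chosen by their measured values in the genotype comparison described here, so the levels of the family and the differences between its groups are a description with no test. Femora of female C57BL/6 mice aged 12 weeks were flushed of marrow and their RNA sequenced, in 3 libraries with the label Dmp1Cre.EfnB2f/f and 4 control libraries with the label Dmp1Cre. Both groups carried the Dmp1Cre transgene, in which a Dmp1 promoter drives Cre in late osteoblasts and osteocytes, and the Dmp1Cre.EfnB2f/f mice also had both alleles of EfnB2, which encodes the contact-dependent signalling protein EphrinB2, flanked by loxP sites. The bone was homogenized whole, so RNA of blood-forming, vascular and muscle cells was sequenced with that of osteocytes. Controls were cousin-bred, and the labels give 4 parent crosses, of which 1 gave a library in both groups.

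PIR-B, the product of Pirb, is an inhibitory receptor whose cytoplasmic tail carries motifs (ITIMs) that recruit the phosphatases SHP-1 and SHP-2. The PIR-A proteins, the products of the Pira genes, have nearly the same extracellular domains but a short tail, and they signal through the Fc receptor gamma chain, an adaptor with an activating motif (ITAM). Both bind major histocompatibility complex class I molecules, and they are found on granulocytes, monocytes and macrophages, dendritic cells, B cells, mast cells and the precursors of osteoclasts. Their human relatives are the leukocyte immunoglobulin-like receptors (LILR). In RNA from whole bone, fewer cells of a type and less RNA per cell cannot be told apart.

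The genes lie in 1 cluster on mouse chromosome 7 (GRCm38, the build of mm10). RefSeq placed Pirb (Entrez gene 18733) at chr7:3712505-3720382, Pira1 (18722) at chr7:3731626-3739943 and Pira2 (18725) at chr7:3836808-3845104. The RefSeq table had no entry for Pira6 (18729). The GENCODE M21 transcript that carries its Entrez number lies at chr7:4274189-4282645 on the opposite strand, under the name Gm15931 and as an unprocessed pseudogene. GENCODE M21 also names Pira1 differently, as Gm15922, a polymorphic pseudogene. The gene Lilra6 (18726, chr7:3908277-3915571) has Pira3 as a RefSeq synonym and was added to the sums where stated.

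The transcripts are so alike that a read can match more than 1 of them, so the sequences are shown before the counts. The coding stretch of 100 bases, the read length of the study, in which Pirb and Pira6 differed most lies in exon 6 of 15 of the longest Pirb transcript, at chr7:3717281-3717380 on the minus strand. It is given for the 4 genes, with every base that differs from Pirb in capitals.
Pirb: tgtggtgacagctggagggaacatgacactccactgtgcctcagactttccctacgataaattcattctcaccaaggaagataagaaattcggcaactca
Pira1: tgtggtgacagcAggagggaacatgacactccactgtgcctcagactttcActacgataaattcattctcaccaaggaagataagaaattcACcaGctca
Pira2: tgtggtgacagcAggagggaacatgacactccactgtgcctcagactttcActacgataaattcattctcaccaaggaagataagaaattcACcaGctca
Pira6: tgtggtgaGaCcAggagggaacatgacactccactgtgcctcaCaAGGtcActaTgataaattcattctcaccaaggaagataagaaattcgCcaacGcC
Pira6 differed from Pirb at 12 of the 100 bases there, and Pira1 and Pira2 at 5 each. In contrast, the longest stretch that Pirb and Pira6 shared without a difference was 169 bases, longer than a read. It lies in coding sequence of exon 8, at chr7:3716034-3716202 on the minus strand, and was also found whole in Pira2 and in the paralog Gm14548.
Pirb and Pira6: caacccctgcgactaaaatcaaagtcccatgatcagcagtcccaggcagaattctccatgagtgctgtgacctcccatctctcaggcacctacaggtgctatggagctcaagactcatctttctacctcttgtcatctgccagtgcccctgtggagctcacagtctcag

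Over the longest GENCODE M21 transcript of each gene, Pira6 was 96.9% identical to Pirb across 1852 aligned bases, and Pira1 was 99.5% identical to Pira2 across 3462. Of all windows of 100 bases in Pira6, 7.87% occurred in a Pirb transcript, and of those in Pirb, 3.7% occurred in Pira6. Pira1 and Pira2 shared far more, as 74% of the windows of either were found in the other. When 9 genes were pooled (the family, Lilra6, Lilra5 and 3 predicted genes of the cluster, Gm15448, Gm10693 and Gm14548, all 4 chosen after their values were seen, for their place in the cluster), 8.44% of Pira6 windows occurred in any other gene. That share was 22.3% for Pirb, 78% for Pira1 and 85.6% for Pira2. These are shares of windows and not of reads. The counts of Pira1 and Pira2 are uncertain as a division between these genes. The control libraries held 58.0 to 66.8 Pirb counts for each Pira6 count, so a small share of Pirb reads placed in Pira6 would be large beside the Pira6 count, which was not tested. How the authors' counting treated reads that map to several places is not given in the sources used here.

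**Figure D1:**
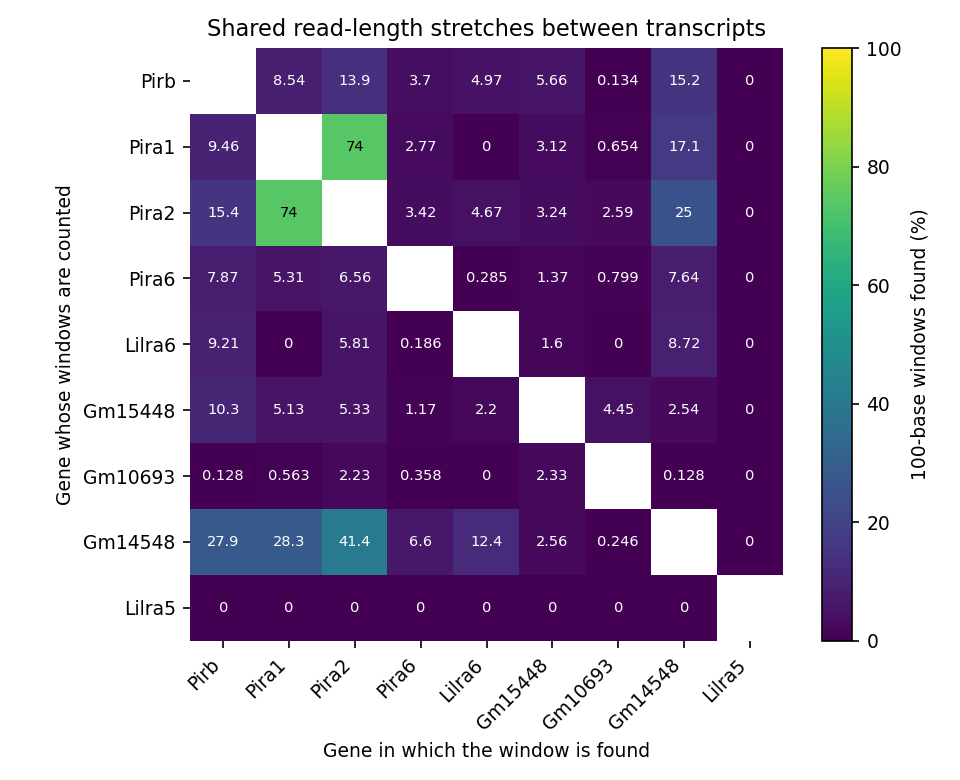
Shared read-length stretches between the transcripts of the family and its paralogs; each cell gives the percentage of 100-base windows in the longest transcript of the gene on the vertical axis that occur in a transcript of the gene on the horizontal axis. Pira1 and Pira2 share 74% of windows, Pira6 shares 7.87% with Pirb, and Lilra5 shares none with any other gene.

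The promoters of Pirb and Pira1 are near copies as well. The first 250 bases of the RefSeq promoter entry of each are shown. Every match to GAGGAA, the core of the binding site of the myeloid factor PU.1, or to its reverse complement TTCCTC is in capitals. The Pirb window is chr7:3720383-3720632 and the Pira1 window chr7:3739918-3740167, both on the minus strand of GRCm38.p6.
Pirb: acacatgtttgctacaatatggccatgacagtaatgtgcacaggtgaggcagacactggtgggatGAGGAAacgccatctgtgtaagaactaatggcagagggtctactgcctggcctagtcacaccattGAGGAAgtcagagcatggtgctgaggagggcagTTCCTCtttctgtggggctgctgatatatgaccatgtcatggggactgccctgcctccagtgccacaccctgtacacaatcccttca
Pira1: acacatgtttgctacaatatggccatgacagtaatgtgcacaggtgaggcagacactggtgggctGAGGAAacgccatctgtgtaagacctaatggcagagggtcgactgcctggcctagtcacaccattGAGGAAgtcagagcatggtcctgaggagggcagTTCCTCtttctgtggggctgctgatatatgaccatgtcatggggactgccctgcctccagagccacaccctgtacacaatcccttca
Of the 250 bases, 245 were identical. Each window held the motif at 2 places on the strand of the gene and at 1 on the other, as did the window of Pira2 (chr7:3845052-3845301), which matched that of Pira1 at 222 of 222 aligned bases. The RefSeq gene starts of Pira1 (chr7:3739943) and Pira2 (chr7:3845104) lie inside these windows, while the Pirb window lies wholly before its gene. Of 32851 RefSeq promoter windows of this length, 23.3% held the motif on either strand. A match is a description of these letters and not of a bound site. Pira6 was not among the promoters in the table.

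The series as a whole bears on these genes in a few ways. Library totals ranged from 17245556 to 22075778 counts, and levels are given as CPM, counts scaled to library size. The lowest count of a family member was 42. Efnb2 itself was higher in the Dmp1Cre.EfnB2f/f-labelled libraries, with 224 to 322 counts against 110 to 164 in the controls, the opposite of what the label would give in cells with active Cre. These counts cover the whole gene and all cells of the bone. The study reported effective Efnb2 targeting in sorted osteocytes of mice with these alleles, by PCR of the targeted region. By an edgeR quasi-likelihood test of all 15078 genes, 0 genes (0%) passed an adjusted p of 0.05 and 1456 had an unadjusted p under 0.05. DESeq2 called 72, and limma without the day of collection called 2257, so the number called depends strongly on the test. The study, by limma with the day as a block, reported genes in both directions at a false discovery rate under 0.05. On the first principal component, which held 53.9% of the variance, control replicates 1 and 4 stood apart from the other 5 libraries. Markers of osteocytes were detected in both groups, with a summed level of 258 to 500.2 CPM in the Dmp1Cre.EfnB2f/f-labelled libraries and 156 to 621 CPM in the controls. The 8 osteoblast markers summed to 14688 to 24570 CPM against 14273 to 71555 CPM. The 8 muscle markers summed to 24989 to 38928 CPM against 11932 to 26201 CPM, and the groups overlapped. Of these 8, 4 were higher at an unadjusted p under 0.05 by edgeR, where the share over all genes was 4.64%.

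Pirb, the inhibitory receptor, was the most abundant member in every library and was lower in the Dmp1Cre.EfnB2f/f-labelled libraries. Its raw counts there were 1132, 1292 and 1615 in replicates 1, 2 and 3, and in control replicates 1 to 4 they were 2807, 3072, 2662 and 2510. The groups did not overlap, and the highest of the 3 lay well below the lowest control. After scaling by TMM, Pirb stood at 73.0 ± 11.3 CPM against 153 ± 16.7 CPM (SD, n = 3 and 4), for a log2 fold change of -1.07 ± 0.17 (SE). The control mean was 2.10 times the mean of the other group.

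Pira6, an activating-type member by name, went the other way. Its raw counts were 210, 196 and 135 in replicates 1, 2 and 3 labelled Dmp1Cre.EfnB2f/f, and 42, 53, 43 and 42 in control replicates 1 to 4. The controls lay close together and the 3 other libraries were spread more widely above them, replicate 3 being the lowest of the 3. In CPM this was 9.85 ± 2.41 against 2.50 ± 0.377 (SD, n = 3 and 4), for a log2 fold change of 1.98 ± 0.24 (SE) and a ratio of 3.94. The differences of Pirb and Pira6 were unlike in size on the CPM scale, where the mean of Pirb was lower by 80.3 CPM and that of Pira6 higher by 7.35 CPM.

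Pira2 was lower in the Dmp1Cre.EfnB2f/f-labelled libraries, with 105, 120 and 135 counts against 188, 153, 158 and 221 in control replicates 1 to 4. The groups did not overlap, by a narrow margin between the highest of the 3 (7.12 CPM) and the lowest control (8.73 CPM). The means were 6.52 ± 0.643 CPM and 9.94 ± 1.45 CPM (SD, n = 3 and 4), for a log2 fold change of -0.61 ± 0.20 (SE).

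Pira1 overlapped between the groups. Its raw counts were 133, 194 and 135 in the Dmp1Cre.EfnB2f/f-labelled libraries and 162, 142, 136 and 160 in the controls, and replicate 2 of the former was the highest of the 7 libraries. The means were 8.39 ± 1.96 CPM and 8.29 ± 0.326 CPM (SD, n = 3 and 4), for a log2 fold change of 0.02 ± 0.20 (SE). Its sign changed with the processing, under a block for parent cross for example. Because Pira1 and Pira2 share most read-length stretches, the gap between these similar genes is uncertain. Summed, they had 238, 314 and 270 counts against 350, 295, 294 and 381, which overlapped.

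Across the family, then, 3 of the 4 members had groups without overlap, 1 higher and 2 lower in the Dmp1Cre.EfnB2f/f-labelled libraries. Of all genes tested, 5.05% had every such library above every control and 6.29% had every one below. Since this comparison chose Pira6 and Pirb, nothing is read from these shares.

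**Figure D2:**
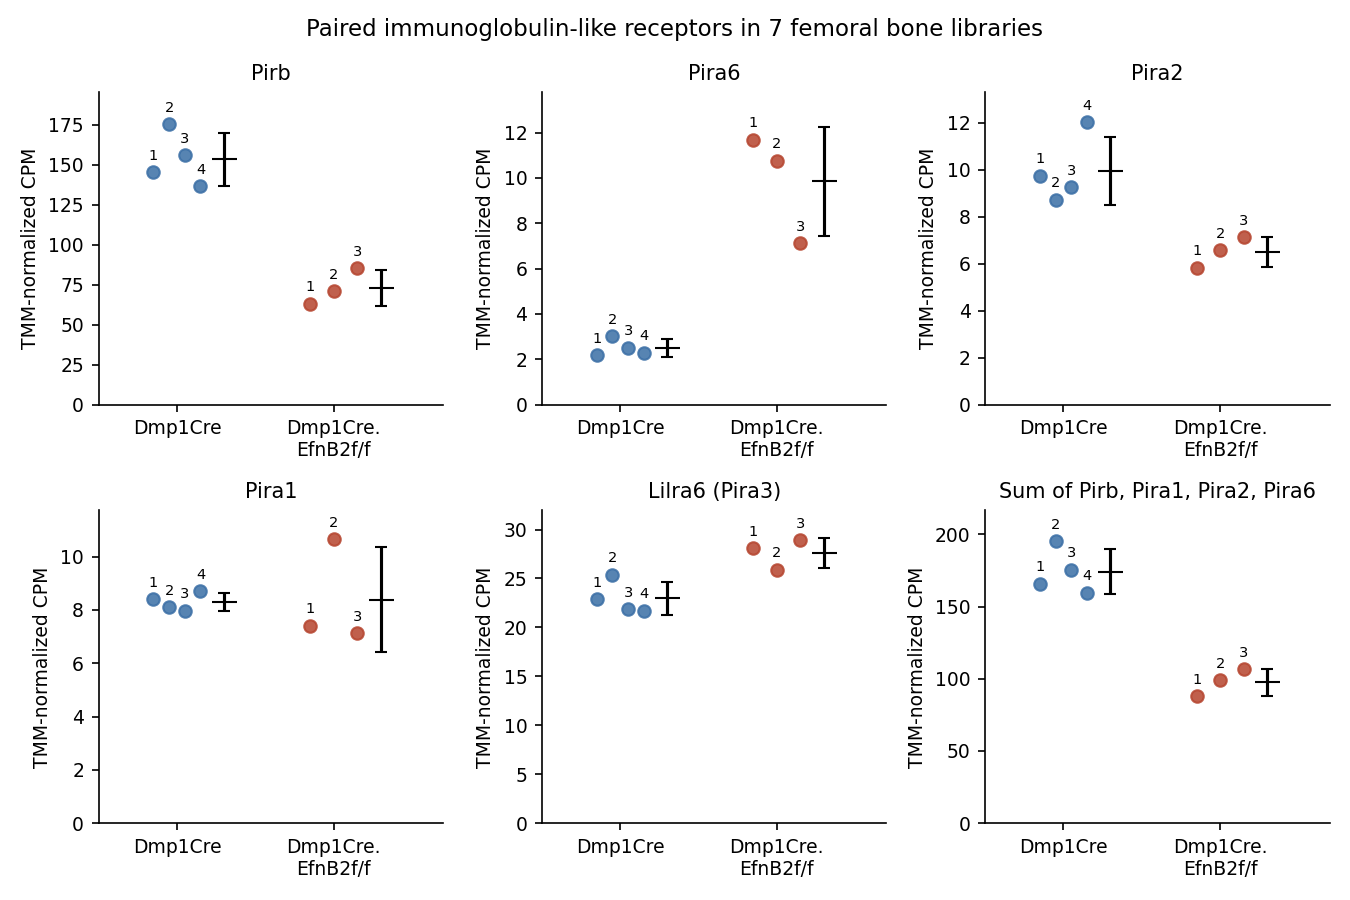
Levels of the 4 members, of Lilra6 and of the sum of the 4 members in each library, in TMM-normalized CPM; points are libraries with their replicate numbers, blue for Dmp1Cre and red for Dmp1Cre.EfnB2f/f, and bars are the mean with its SD. Pirb, Pira2 and the sum lie lower in the red points without overlap, Pira6 and Lilra6 lie higher, and Pira1 overlaps.

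Lilra6, the gene with the synonym Pira3, encodes an activating-type receptor by name. It had 505, 472 and 548 counts in the Dmp1Cre.EfnB2f/f-labelled libraries and 442, 445, 373 and 399 in the controls. After scaling, the lowest of the 3 (25.9 CPM) lay just above the highest control (25.4 CPM), and the log2 fold change was 0.27 ± 0.15 (SE).

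The summed counts of the 4 members do not depend on how counted reads were divided among them. Reads left out, or placed in a gene outside the 4, would still be missing from the sum. Of Pirb windows, for example, 15.2% occur in Gm14548. The sums were 1580, 1802 and 2020 in the Dmp1Cre.EfnB2f/f-labelled libraries and 3199, 3420, 2999 and 2933 in the controls. The sum was lower in every library of the former group, at 97.8 ± 9.38 CPM against 174 ± 15.6 CPM (SD, n = 3 and 4), for a log2 fold change of -0.83. With Lilra6 added it was 125 ± 9.75 CPM against 197 ± 17.1 CPM, and the log2 fold change was -0.65. With Gm15448, Gm10693 and Gm14548 added too, 8 paralogs in all, it was 164 ± 6.73 CPM against 227 ± 16.1 CPM, and the groups still did not overlap. The sum follows Pirb, which held most of the counts. The 3 Pira genes by themselves summed to 448, 510 and 405 counts against 392, 348, 337 and 423, which overlapped.

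The make-up of the family differed as well as its total. Pirb made up 71.6%, 71.7% and 80.0% of the counts of the 4 members in the Dmp1Cre.EfnB2f/f-labelled libraries, and 85.6% to 89.8% in the controls. Pira6 made up 13.3%, 10.9% and 6.68%, against 1.31% to 1.55%. Put as a ratio, there were 5.39, 6.59 and 12.0 Pirb counts for each Pira6 count in replicates 1, 2 and 3, and 58.0 to 66.8 in the controls. For every 100 Pirb counts the 3 Pira genes together had 39.6, 39.5 and 25.1 counts, against 11.3 to 16.9. Replicate 3 lay nearest to the controls in each of these measures. In that library Pira1, Pira2 and Pira6 each had 135 counts.

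**Figure D3:**
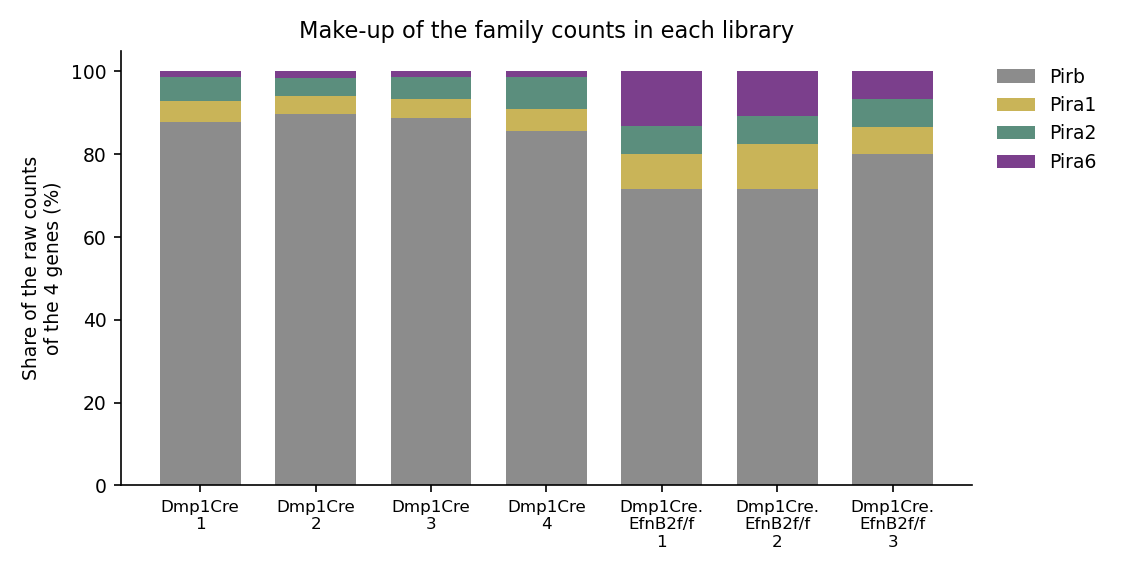
Share of the raw counts of the 4 members held by each member in each library, in percent; bars start at 0 and reach 100, and each bar is 1 library named by its group and replicate number. The Pira6 segment is 6.68% to 13.3% in the Dmp1Cre.EfnB2f/f-labelled libraries and 1.31% to 1.55% in the controls.

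Levels of different genes were compared per kb of the full gene length in the count files. Of the 100-base windows, 78% in Pira1, 85.6% in Pira2 and 8.44% in Pira6 occur in another of the 9 genes compared. How reads from such windows were counted is not given. The places of Pira6, Pira1 and Pira2 relative to each other are therefore uncertain. In the controls the order was Pirb at 56.2 ± 6.12 CPM per kb, Lilra6 at 8.91 ± 0.663, Pira2 at 2.87 ± 0.418, Pira1 at 2.41 ± 0.0947 and Pira6 at 1.28 ± 0.194 (SD, n = 4). Pira2 and Pira1 were neighbours in this order whose ranges met, at 2.52 to 3.47 and 2.32 to 2.53 CPM per kb, and the ranges of the other neighbours did not. In the Dmp1Cre.EfnB2f/f-labelled libraries, Pira6 moved from last place to the third, at 5.06 ± 1.24 CPM per kb (SD, n = 3), between Lilra6 at 10.7 ± 0.602 and Pira1 at 2.44 ± 0.570. Pira2 was last there, at 1.88 ± 0.186, and its range ended at 2.06 where that of Pira1 began at 2.07. Pirb remained first, at 26.8 ± 4.13 CPM per kb.

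The labels give parent crosses, and replicates 1 and 2 labelled Dmp1Cre.EfnB2f/f came from a single cross that has no control library here. Replicate 3 and control replicate 3 shared a cross, which allows 1 comparison within it, with no replicate. In that pair Pirb was 85.2 against 156 CPM and Pira6 was 7.12 against 2.52 CPM, log2 ratios of -0.87 and 1.50. The summed family was 107 against 176 CPM, a log2 ratio of -0.72. The directions were those of the whole comparison, and the sizes of all 3 were smaller. Lilra5, a neighbour of Pira6 treated further on, was 3.22 against 3.05 CPM in the same pair. Other paralogs of the cluster varied there. Gm10693 was 2.53 against 0.527 CPM, Lilra6 28.9 against 21.9, Gm15448 7.28 against 5.33 and Gm14548 24.8 against 24.3. Apart from this pair, genotype and cross cannot be told apart.

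The cell types that carry these receptors were followed by lists of marker genes. All 13 neutrophil markers tested, such as Ly6g, Ltf and Ngp, had a log2 fold change below 0, with a median of -0.51 against 0.01 over all genes tested. None passed an adjusted p of 0.05, and 5 of the 13 were lower at an unadjusted p under 0.05, where the share over all genes was 5.02%. Their summed level was 12655 to 15870 CPM in the Dmp1Cre.EfnB2f/f-labelled libraries and 18253 to 21258 CPM in the controls, without overlap. Of 12 markers of monocytes and macrophages, 2 were lower at that threshold, and the sum was 1266 to 1347 CPM against 1428 to 1812 CPM. Of 10 B cell markers, 8 had a log2 fold change above 0 and 1 was higher at that threshold, where the share over all genes was 4.64%. Of 6 markers of mast cells and basophils 0 passed it, and of 8 markers of dendritic cells 2 were lower. Among cells outside these types, 5 of 7 erythroid markers were lower at that threshold, with sums of 6739 to 13737 CPM against 15789 to 43903 CPM, without overlap. Markers of osteoclasts, 9 in all, summed to 1973 to 2099 CPM against 1377 to 3257 CPM, and 0 of the 9 passed in either direction. No marker of these lists was at 0 in any library. The part of these cells in the levels of the receptors was not tested.

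The members were also set against the neutrophil markers, whose sum was itself lower in every Dmp1Cre.EfnB2f/f-labelled library. Dividing by it raises every member in that group relative to the controls. For Pira6, already higher in each of these libraries, groups without overlap were therefore fixed in advance. The ratios are a description and do not correct for the number of neutrophils. Pirb had 4.98, 4.47 and 5.52 CPM per 1000 CPM of the 13 markers in the Dmp1Cre.EfnB2f/f-labelled libraries, and 7.60, 8.71, 8.54 and 6.42 in control replicates 1 to 4. The groups did not overlap, and the control mean was 1.57 times the other mean, against 2.10 times for Pirb alone. Pira6 had 0.461 to 0.923 per 1000 against 0.107 to 0.150. Pira2 had 0.415 to 0.461 against 0.434 to 0.565, so that its groups overlapped on this scale. Pira1, whose groups overlapped in CPM, had 0.461 to 0.671 against 0.403 to 0.438. Its groups came apart on this scale through the lower marker sum, so nothing is read from that gap.

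**Figure D4:**
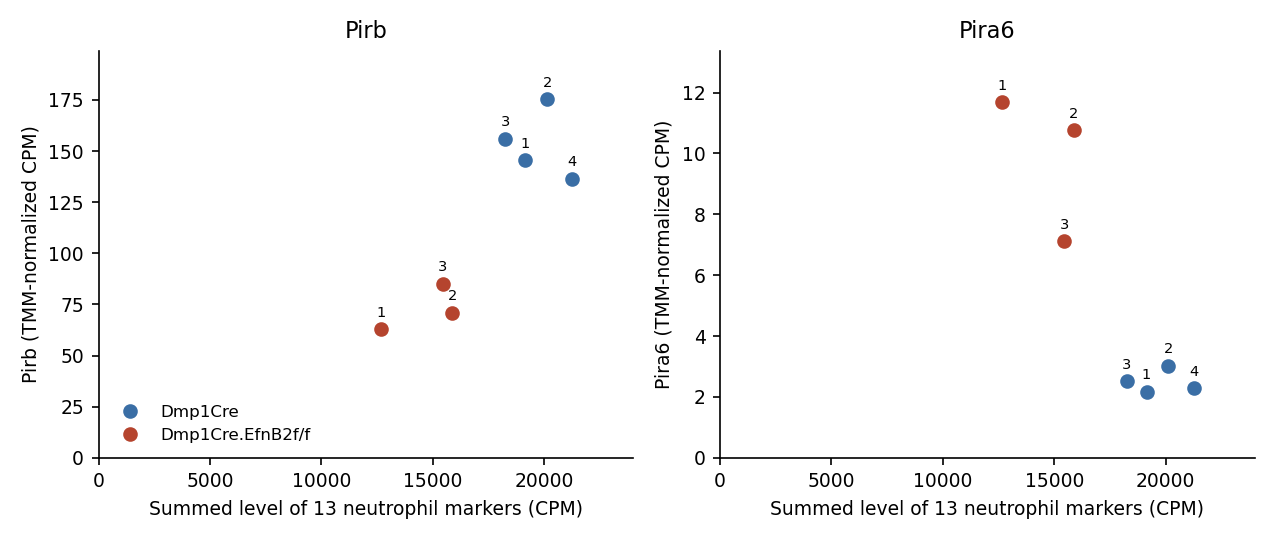
Pirb and Pira6 in TMM-normalized CPM against the summed CPM of 13 neutrophil markers; each point is a library with its replicate number, blue for Dmp1Cre and red for Dmp1Cre.EfnB2f/f, and both axes start at 0. The red points have a lower marker sum (12655 to 15870 CPM) than the blue points (18253 to 21258 CPM), with less Pirb and more Pira6.

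Lists of 50 tested genes, called partner and ligand genes here, were also followed. They hold genes through which the receptors signal and genes they bind. They also hold other receptors that carry an ITIM or use an ITAM adaptor, which are not partners of PIR-A or PIR-B. By edgeR's quasi-likelihood test, 0 of the 50 passed an adjusted p of 0.05. At an unadjusted p under 0.05, 0 were higher and 10 were lower, where the shares over all genes tested were 4.64% and 5.02%. DESeq2 called 2, both lower, against 0.318% of all genes called lower. Limma without the day of collection called 3 higher and 6 lower, where it called 7.54% of all genes higher and 7.43% lower. The median log2 fold change of the 50 was -0.22, against 0.01 over all genes tested.

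On the activating side, the 18 genes were those of adaptors, kinases and further signalling proteins, and of other receptors. At an unadjusted p under 0.05, 5 of the 18 were lower, as were 5.02% of all genes. Fcer1g, the Fc receptor gamma chain that pairs with PIR-A, stood at 87.7 ± 2.08 CPM against 112 ± 12.4 CPM (SD, n = 3 and 4), for a log2 fold change of -0.35 ± 0.15 (SE, edgeR adjusted p = 0.510). The lowest unadjusted p of the list was that of Fgr, a kinase of the Src family, at 85.3 ± 9.89 against 133 ± 14.1 CPM (log2 fold change -0.64 ± 0.16 SE, edgeR adjusted p = 0.510). Syk, the kinase that binds phosphorylated ITAMs and the gene of the list with the highest CPM, not scaled for length, stood at 406 ± 17.1 against 471 ± 95.4 CPM, a difference within the spread of the controls (log2 fold change -0.21 ± 0.21 SE). Oscar, the osteoclast-associated receptor that also uses the gamma chain, had 64, 38 and 61 counts against 158, 52, 18 and 51, and it is named here after its values were seen. Control replicate 1 had the highest count and control replicate 3 the lowest, so the groups overlapped.

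On the inhibitory side, 3 of 18 genes were lower at that threshold, against the same 5.02%. All 3 were other inhibitory receptors and not genes through which PIR-B signals. Ptpn6, which encodes SHP-1, stood at 176 ± 27.7 against 235 ± 51.8 CPM (log2 fold change -0.41 ± 0.22 SE, edgeR adjusted p = 0.517). Ptpn11, which encodes SHP-2, stood at 289.8 ± 5.59 against 278 ± 39.2 CPM. Siglece, an inhibitory receptor for sialic acids, had the lowest unadjusted p of the list, at 20.9 ± 2.73 against 34.2 ± 3.93 CPM (log2 fold change -0.71 ± 0.17 SE, edgeR adjusted p = 0.510). The highest CPM of the list was that of Sirpa, an inhibitory receptor for CD47, at 333 ± 12.4 against 401 ± 76.7 CPM.

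Among 14 genes of ligands and ligand complexes, with the receptor gene Rtn4r counted in, 2 were lower at an unadjusted p under 0.05. The share over all genes was again 5.02%. B2m, the light chain of class I molecules and the gene of the list with the highest CPM, stood at 760.4 ± 89.9 against 797 ± 97.8 CPM, with a log2 fold change of -0.07 ± 0.21 (SE). Mag, a myelin glycoprotein that binds PIR-B in the nervous system, had the lowest unadjusted p, at 2.75 ± 0.362 against 4.36 ± 0.795 CPM (log2 fold change -0.66 ± 0.24 SE, edgeR adjusted p = 0.510).

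The next comparison asked how genes beside the family on chromosome 7 behaved. Within 1 Mb of the ends of the family, 59 other genes were tested, Lilra5 and Lilra6 among them. By edgeR 0 passed an adjusted p of 0.05. At an unadjusted p under 0.05, 2 were higher and 9 lower, against 4.64% and 5.02% of all genes, and the median log2 fold change was -0.29 against 0.01. DESeq2 called 2, both lower (0.318% of all genes), and limma without the day called 3 higher and 16 lower (7.54% and 7.43% of all genes). For 3 genes every Dmp1Cre.EfnB2f/f-labelled library lay above every control, and for 9 every one lay below, as held for 5.05% and 6.29% of all genes.

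The lowest unadjusted p values were those of Nlrp12, a cytoplasmic sensor of myeloid cells, and of Tarm1, a receptor of myeloid cells that pairs with the gamma chain. Nlrp12 stood at 20.2 ± 1.14 against 31.6 ± 2.00 CPM (log2 fold change -0.64 ± 0.15 SE). Tarm1 stood at 4.49 ± 0.233 against 7.75 ± 0.496 CPM (log2 fold change -0.79 ± 0.18 SE). Both had an edgeR adjusted p of 0.510.

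The nearest tested gene before the family was Rps9, a protein of the small ribosomal subunit next to Pirb, with 3133, 3399 and 4298 counts against 7328, 4491, 4438 and 8816 in control replicates 1 to 4. Controls 1 and 4, which stood apart on the principal component, were far above controls 2 and 3 (log2 fold change -0.81 ± 0.27 SE, edgeR adjusted p = 0.510). With a block for parent cross the log2 fold change of Rps9 was -0.20, and with limma without the day it was -0.45. The nearest after it was Ncr1, a receptor of natural killer cells, at 5.62 ± 0.935 against 5.25 ± 1.85 CPM, within the spread of the controls.

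Lilra5, an activating receptor of the LILR group, lies inside the family's span and next to Pira6, and none of its read-length windows occurs in the other 8 genes compared. It had 107, 103 and 61 counts in the Dmp1Cre.EfnB2f/f-labelled libraries and 40, 47, 52 and 36 in the controls. Replicates 1 and 2 were well above the controls and replicate 3 only just (3.22 against at most 3.05 CPM), for a log2 fold change of 1.02 ± 0.29 (SE, edgeR adjusted p = 0.510). Of the 3 predicted genes of the cluster, which the filter on gene class had removed, Gm10693 had 37, 15 and 48 counts against 7, 7, 9 and 9. With all classes kept its log2 fold change was 2.00 ± 0.42 (SE, edgeR adjusted p = 0.518). Gm15448 had 117, 76 and 138 counts against 91, 87, 91 and 112, and Gm14548 had 581, 656 and 470 against 514, 408, 414 and 437. Both overlapped.

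**Figure D5:**
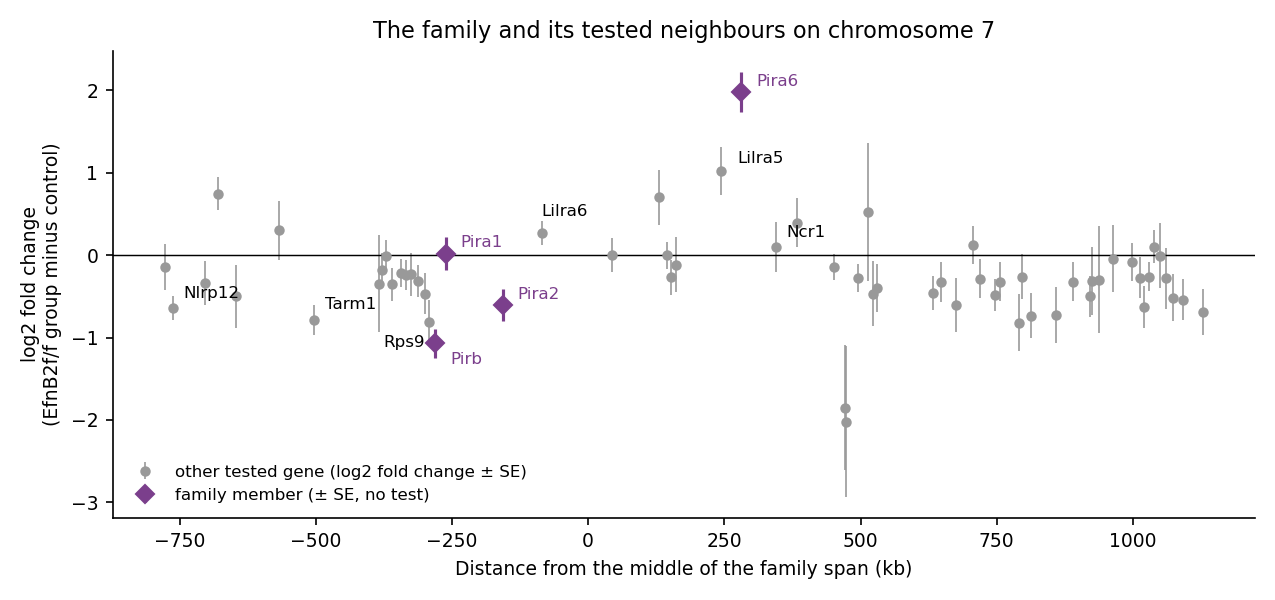
Log2 fold change, Dmp1Cre.EfnB2f/f-labelled libraries minus Dmp1Cre, of the 4 members (diamonds) and of the 59 other tested genes within 1 Mb (circles) against distance from the middle of the family in kb; bars are standard errors. Pira6 (1.98) and its neighbour Lilra5 (1.02) lie highest, Pirb (-1.07) lies beside Rps9 (-0.81), and the genes with the lowest values far to the right have wide errors.

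Genes whose level over the 7 libraries ran most like that of a member were found by Pearson's r of log2 CPM, among all tested genes outside the family. For Pirb they were Fmo5 (r = 0.995, Spearman's rho = 0.964), Ifnlr1 (r = 0.989, rho = 0.964), Itgam (r = 0.987, rho = 0.893), Lin28a (r = 0.984, rho = 0.964) and Hal (r = 0.977, rho = 0.964). Itgam encodes CD11b, the integrin subunit of granulocytes and macrophages, and stood at 301 ± 34.5 CPM against 499.5 ± 24.3 CPM (SD, n = 3 and 4). Fmo5 encodes a flavin-containing monooxygenase, Ifnlr1 a subunit of the interferon lambda receptor, Lin28a an RNA-binding protein and Hal histidine ammonia-lyase. For Pira6 they were Myo15 (r = 0.974, rho = 0.929), Prr16 (r = 0.973, rho = 1), D5Ertd605e (r = 0.972, rho = 0.964), E030030I06Rik (r = 0.972, rho = 0.929) and Sfrp1 (r = 0.969, rho = 0.857). Myo15 encodes a myosin of the inner ear and stood at 13.6 ± 2.35 against 4.64 ± 0.832 CPM. Sfrp1 encodes a secreted inhibitor of Wnt signalling and stood at 15.2 ± 2.00 against 8.79 ± 0.786 CPM. These values share the 7 libraries and the gap between the groups, and they are given without a p because they were picked as the highest.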

How the data were processed

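RNA from 7 flushed femora was sequenced by the authors as 100-base read pairs, mapped to mm10 with Rsubread and counted per Entrez gene by featureCounts. The deposited values are raw counts, neither normalized nor pooled; software versions beyond bcl2fastq 2.17.1.14, strand setting and treatment of multi-mapping reads are not given in the sources used here. The table of the whole series held the same counts as the library files.

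The study's filter of 0.65 CPM in 3 or more libraries left 16302 genes, and immunoglobulin segments, ribosomal RNA genes, predicted genes, pseudogenes, the Y chromosome and Xist class and genes without a symbol were left out, after the study's classes, which left 15078. The study's ribosomal genes were read as ribosomal RNA, and its obsolete gene numbers as those without a symbol. Genotypes were compared with edgeR 4.0.16 in R 4.3.3 (TMM, quasi-likelihood, Benjamini-Hochberg adjustment, threshold 0.05), checked on simulated counts; levels are TMM-normalized CPM, and the SE is the fold change over the root of the F statistic. DESeq2 1.42.0 and limma 3.58.1 were alternatives. The study's main test, limma with the day of collection, could not be used: bones were collected on 2 days, each with both genotypes, but no label gives a library's day, and its part in the results was not tested. Replicates are separate mice. Transcripts were aligned with Biopython. Positions and promoters came from RefSeq GRCm38.p6, transcripts from GENCODE M21. The named genes were all family symbols, the RefSeq synonym, the highest-CPM and lowest-p gene of each list, the 3 lowest-p neighbours (1 is not reported here) and the nearest, and the 5 genes most like Pira6 and the 5 most like Pirb; others are said to be chosen later. Members and lists were chosen with earlier results of these data known. Depth limits precision: 42 counts is the lowest member value.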

Additional observations from a re-analysis of the deposited data

Results flagged for a closer look

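In all, 26 sets of control values were checked for a library that lay far from the other 3. This held in 2, a neighbouring gene and a ligand gene, and in none of the family members or their sums. For Nlrp12 the gap between control replicate 2, the lowest, and the next control was 0.895 of the range of the 4 controls. For Mag the gap between control replicate 1, the highest, and the next control was 0.857 of that range. The limit for 4 samples is 0.829, and chance exceeds it in about 1 of 20 groups.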

How the results depend on the processing

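The log2 fold changes of Pira6, Pirb, Pira2 and the summed family kept their direction under every alternative run, over 1.50 to 2.16, -1.23 to -0.87, -0.68 to -0.38 and -0.91 to -0.65. Leaving out 1 library at a time gave 1.84 to 2.16 for Pira6, -1.20 to -0.97 for Pirb and -0.90 to -0.76 for the sum. With a block for parent cross, which leaves replicate 3 of each group to carry the difference, Pira6 was 1.50 and Pirb -0.87. Without that block, adding Lilra6 moved the sum to -0.65. With the replicate number as a block, Pira6 was 1.92, Pirb -1.13 and the sum -0.87, and 1 gene of all tested passed an adjusted p of 0.05. The numbers are not shown to pair the samples, since deviations of same-numbered libraries correlated at -0.14, 0.06 and -0.42. Pira1 changed sign, to -0.0090 with DESeq2, to -0.16 with the cross block, and over -0.18 to 0.12 when libraries were left out. Genes called at an adjusted p of 0.05 numbered 0 with edgeR, 72 with DESeq2, 2257 with limma without the day, and 0 to 2 when libraries were left out. The partner and ligand genes called were 0, 2 and 9 by the same tools, and the neighbours 0, 2 and 19, with 0 to 0 for both when libraries were left out. Other sign changes were those of Ncr1 (-0.28 with limma, -0.034 with the replicate block, -0.68 with the cross block, -0.063 to 0.32 without 1 library), Oscar (1.60 with the cross block, -0.65 to 0.38 without 1 library), Syk (0.068 with limma, 0.16 with the cross block), Sirpa (0.030 with the cross block) and B2m (0.11 with limma, 0.023 with library size alone, 2.0e-04 with the replicate block, -0.14 to 0.027 without 1 library). The cause of these changes was not tested.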

Other observations

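Eps8l1, an adaptor of the actin cytoskeleton on the same stretch of chromosome 7, was chosen after its values were seen. It had 11 and 13 counts in replicates 1 and 2 labelled Dmp1Cre.EfnB2f/f, 200 in replicate 3, and 155, 226, 366 and 407 in control replicates 1 to 4. Replicates 1 and 2 are those of the cross that has no control library here, and in Pira6 and Lilra5 they were also the highest of the 7 libraries, with replicate 3 between them and the controls. In Gm14548 they were the highest as well, with replicate 3 within the range of the controls. In Lilra6, Gm10693 and Gm15448, however, replicate 3 was the highest of the 7. The part of the cross in these levels was not tested.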
